A study of Mus musculus with 12 samples.

Results

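The growth-arrest genes described here are 10 genes that hold back cell division or answer to the tumour suppressor p53. They are the 3 Gadd45 genes (Gadd45a, Gadd45b and Gadd45g), the kinase inhibitor genes Cdkn1a (p21) and Cdkn1b (p27), the G-type cyclin genes Ccng1 and Ccng2, the ubiquitin ligase gene Mdm2, and Btg1 and Btg2. They were picked by symbol from 36144 gene symbols, and all 10 passed the filter on low values, among 11544 genes tested. The set was put together with earlier results of these data known, in which the rise of Gadd45a with manganese had already stood out. The calls below therefore describe the members within a fit of the whole table and are not independent evidence.

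Primary hepatocytes from a WT C57/Bl6J mouse were plated and kept for 16 h without serum before polyadenylated RNA was sequenced in 4 groups of 3 libraries. FDMn cells had 6 µM manganese chloride during those 16 h, FDI cells had 100 nM insulin from 1 h before the hormone mimics, and FDMn, FDI and FD cells all had 10 µM forskolin and 1 µM dexamethasone for 5 h before lysis. Forskolin activates adenylate cyclase and so raises cAMP, and dexamethasone is a synthetic glucocorticoid, a combination that imitates the hormones of fasting. Mock cells had none of these agents. The labels speak of a single mouse and do not say that replicates are separate preparations, so the p-values speak only of variation among these 12 libraries, part of which may be technical. No group had manganese or insulin alone, and manganese was present for longer than insulin, so agent and exposure time cannot be told apart.

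GADD45 proteins are small nuclear proteins that bind the replication clamp PCNA, p21, the mitotic kinase CDK1 and the upstream stress kinase MAP3K4, and they are known as early answers to DNA damage and other stress. p21 and p27 block cyclin-dependent kinases, and p21, MDM2, cyclin G1 and BTG2 are textbook p53 targets, of which MDM2 in turn marks p53 for destruction. FOXO factors, which insulin keeps out of the nucleus, are known to drive growth-arrest genes, Ccng2 and Cdkn1b among them. The p53 and FOXO targets named here are examples and not a full list of such targets among the members. BTG proteins hold back growth and bring the CCR4-NOT deadenylase, which shortens mRNA tails, to transcripts. Adult hepatocytes rest outside the cell cycle and re-enter it after loss of liver tissue.

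Promoter sequence of 4 members is shown as examples of stretches that hold a match to a searched motif; whether these motifs bear on the levels was not tested. Each stretch lies before the transcription start in RefSeq on GRCm38.p6, is written 5′ to 3′ on the gene's strand, and leaves out bases inside the annotated gene. Capitals mark matches, on either strand, to any of 7 motifs: the cAMP response element TGACGTCA and its shorter core TGACG, the FOXO motif GTAAACA, the ATF4-C/EBP motif TGATGNAA, the AP-1 motif TGANTCA, the glucocorticoid receptor motif, and the p53 decamer. TATA boxes are not in capitals. The shorter core lies within the full cAMP element and the full element counts under both.
Gadd45g, chr13:51846425-51846674, plus strand: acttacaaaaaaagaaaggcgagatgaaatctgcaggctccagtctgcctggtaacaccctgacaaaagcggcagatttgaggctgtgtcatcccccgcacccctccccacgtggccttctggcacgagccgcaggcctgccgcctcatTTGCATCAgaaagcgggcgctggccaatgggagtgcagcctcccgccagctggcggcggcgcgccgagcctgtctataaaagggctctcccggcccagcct
Cdkn1a, chr17:29090729-29090975, plus strand, the more upstream of its starts: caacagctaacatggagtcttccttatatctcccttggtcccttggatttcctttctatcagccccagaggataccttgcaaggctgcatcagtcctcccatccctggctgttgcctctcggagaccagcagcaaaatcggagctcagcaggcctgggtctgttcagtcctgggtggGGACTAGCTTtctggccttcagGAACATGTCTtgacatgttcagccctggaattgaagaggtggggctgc
Btg1, chr10:96616751-96617000, plus strand: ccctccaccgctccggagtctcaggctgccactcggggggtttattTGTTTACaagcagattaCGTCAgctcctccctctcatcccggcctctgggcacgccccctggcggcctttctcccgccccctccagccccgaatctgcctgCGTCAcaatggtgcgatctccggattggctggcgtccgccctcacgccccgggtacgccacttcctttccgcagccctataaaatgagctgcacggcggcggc
Btg2, chr1:134079156-134079405, minus strand: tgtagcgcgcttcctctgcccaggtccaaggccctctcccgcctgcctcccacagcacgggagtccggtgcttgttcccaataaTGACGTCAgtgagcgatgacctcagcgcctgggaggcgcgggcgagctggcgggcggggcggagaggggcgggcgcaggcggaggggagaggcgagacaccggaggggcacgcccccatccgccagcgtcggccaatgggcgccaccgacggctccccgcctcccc

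All 10 members had a RefSeq window of 250 bases before a start, and Cdkn1a had 2, so 11 windows were searched. The full cAMP element was found in the window of Btg2 alone, from 166 to 159 bases before its start, and 1.55% of 32851 promoters held it. Its shorter core was found in Btg1 and Btg2 (17.8% of promoters), and the FOXO motif in Btg1 and Mdm2 (3.17%). The ATF4-C/EBP motif was found in Gadd45g alone, from 101 to 94 bases before the start (3.45%). The p53 decamer was found in 4 windows, those of Gadd45a, Cdkn1a, Ccng1 and Mdm2 (7.13%). The AP-1 and glucocorticoid receptor motifs had no match in the 11 windows (6.75% and 0.387% of promoters). A match is a description of letters and not a binding site.

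Levels are in TPM, a unit that scales each library to the same total and corrects for transcript length, so that levels can be compared between genes. In each library 10900 to 11161 genes reached 1 TPM, and the correlation between libraries of a group, taken across genes, was 0.981 to 0.991, where genes are not independent replicates. Changes are differences of log2(TPM + 1), which understate the change of low genes, and a call is an adjusted p under 0.05 from limma over all genes tested. All 8 hepatocyte markers were measured, with a summed level of 27140 to 37625 TPM over the libraries. Alb carried most of this sum (22624 to 32589 TPM), which hides markers that differed between groups. Cps1 was at 77.9 to 83.1 TPM in FDMn, 30.4 to 38.7 in FDI, 176 to 236 in FD and 2.94 to 4.24 in Mock. Hnf4a was at 181 to 187, 174 to 180, 202 to 208 and 51.0 to 53.5 TPM in the same order, while Cyp2e1 and Serpina1a differed little. Fgb was highest in FDMn, at 465 to 553, 228 to 248, 312 to 342 and 246 to 276 TPM in that order. Ttr was at 1139 to 1164, 930 to 1031, 954 to 1102 and 714 to 732 TPM. Apoa1 was likewise highest in FDMn and lowest in Mock. The 5 lymphocyte markers summed to at most 0.367 TPM. The Kupffer cell list of 8 genes summed to 6.50 to 7.73 TPM in FDMn, 4.58 to 5.72 in FDI, 4.43 to 5.72 in FD and 3.53 to 4.73 in Mock. The bile duct genes Spp1 and Sox9, of a list of 5, carried nearly all of its 1359 to 1551 TPM in FDMn, 650.3 to 698 in FDI, 676 to 735 in FD and 898 to 964 in Mock, with Krt7, Krt19 and Epcam under 1 TPM in every group. The endothelial list of 7 summed to 23.5 to 26.9 TPM in FDMn, 17.2 to 22.5 in FDI, 19.4 to 28.4 in FD and 15.5 to 16.4 in Mock, and the stellate list of 7 to 3.34 to 5.52 TPM over all libraries. The part of other cells in the results below was not tested. In bulk RNA, fewer cells of a type and less RNA per cell cannot be told apart.

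**Figure D1:**
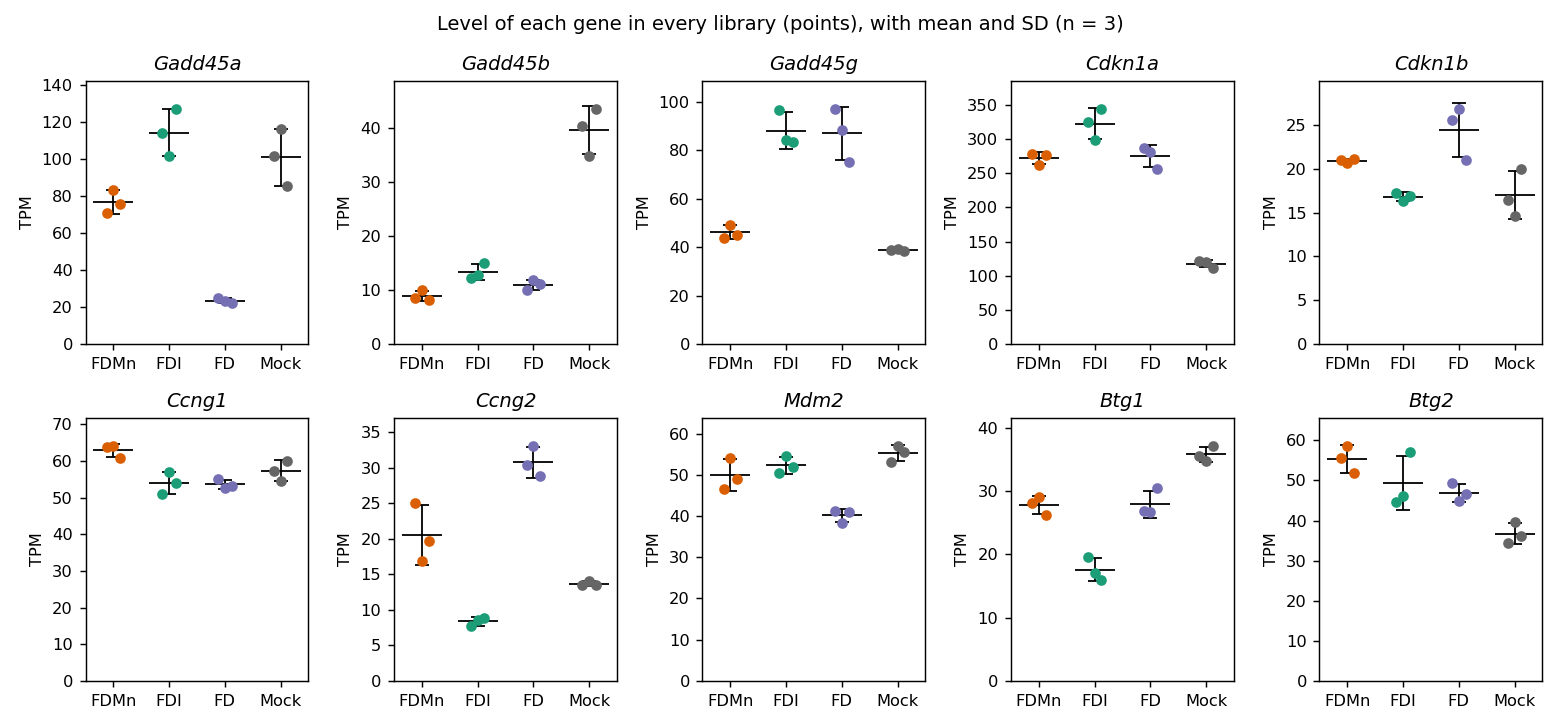
Level in TPM (y axis, from 0, own scale per gene) of the 10 genes in the groups FDMn, FDI, FD and Mock (x axis). Each point is a library, the bar is the mean and the whiskers are the SD of 3 libraries. Gadd45a is low in FD alone, Gadd45b is high in Mock alone, and Gadd45g is high in FDI and FD.

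The 3 Gadd45 genes each followed a different course. Gadd45a was lowest in FD and stood at 0.759 times the Mock level or more in FDMn and FDI. Gadd45b was low in all groups given forskolin and dexamethasone. Gadd45g was higher in FD than in Mock, lower in FDMn than in FD, and in FDI it was not called different from FD.

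Gadd45a (ENSMUSG00000036390.8, chromosome 6, 67035096 to 67037457 on GRCm38) had 70.6, 83.6 and 75.9 TPM in FDMn, 114, 101 and 127 TPM in FDI, 24.9, 23.2 and 22.1 TPM in FD and 102, 116 and 85.3 TPM in Mock. The FD libraries lay far below all 9 others, and FDI and Mock overlapped. The level in FD was 0.232 times that in Mock (log2 change −2.05 ± 0.11, SE, adjusted p = 3.6e-08). It was 3.28-fold higher in FDMn than in FD (log2 change 1.67 ± 0.11), a difference given as a description because it was known when the set was chosen. Gadd45a was 4.88-fold higher in FDI than in FD (2.23 ± 0.11, adjusted p = 3.67e-07) and lower in FDMn than in FDI (−0.57 ± 0.11, adjusted p = 0.00499). FDI and Mock did not differ by this test (0.18, 95% interval −0.07 to 0.43, adjusted p = 0.233). FDMn was lower than Mock (−0.39 ± 0.11, adjusted p = 0.0158), a call that ended under both other scalings (adjusted p = 0.14 and 0.0594) and without Mock replicate 2 or FDMn replicate 1. A gene on the opposite strand overlaps Gadd45a in the annotation, and the use of strand in the counting is not given in the sources used here.

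Gadd45b (ENSMUSG00000015312.9, chromosome 10, 80930073 to 80932204) had 8.54, 10.0 and 8.19 TPM in FDMn, 12.3, 12.7 and 15.1 TPM in FDI, 10.0, 11.9 and 11.05 TPM in FD and 40.4, 34.7 and 43.5 TPM in Mock. Every Mock library was above every other library. The gene fell in FD relative to Mock (−1.76 ± 0.11, adjusted p = 1.51e-07), and it remained lower than Mock in FDMn (−2.03 ± 0.11, adjusted p = 4.17e-08) and in FDI (−1.49 ± 0.11, adjusted p = 7.67e-07). Against FD, neither FDMn (−0.28, 95% interval −0.52 to −0.03, adjusted p = 0.125) nor FDI (0.26, 0.02 to 0.51, adjusted p = 0.149) passed the test. These small differences ran opposite ways, and FDMn was lower than FDI (−0.54 ± 0.11, adjusted p = 0.00683).

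Gadd45g (ENSMUSG00000021453.2, chromosome 13, 51846678 to 51848468), whose promoter above holds the ATF4-C/EBP motif, had 43.9, 49.3 and 45.1 TPM in FDMn, 96.7, 84.2 and 83.3 TPM in FDI, 96.9, 88.5 and 75.3 TPM in FD and 38.9, 39.3 and 38.3 TPM in Mock. FDI and FD overlapped, and FDMn lay between them and Mock. Gadd45g rose 2.24-fold in FD relative to Mock (1.14 ± 0.09, adjusted p = 1.04e-06) and fell in FDMn relative to FD (−0.89 ± 0.09, adjusted p = 6.7e-05). In FDI it was at 1.01 times the FD level (0.02, 95% interval −0.17 to 0.22, adjusted p = 0.892). The direct comparison of FDMn with FDI gave −0.92 ± 0.09 (adjusted p = 4.51e-05). FDMn remained above Mock (0.24 ± 0.09, adjusted p = 0.0482), a call that ended without any single library of either group and with no filter on low values (adjusted p = 0.0885).

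Gadd45a made up 57.4 to 58.7% of the summed Gadd45 TPM in FDMn, 51.1 to 56.3% in FDI, 18.8 to 20.4% in FD and 51.1 to 61.1% in Mock. Gadd45g made up 34.5 to 35.7% in FDMn, 37.0 to 43.3% in FDI, 69.4 to 73.5% in FD and 20.6 to 22.9% in Mock. The sum itself was 132 ± 10.1 TPM in FDMn, 216 ± 15.05 in FDI, 121 ± 11.8 in FD and 179 ± 11.7 in Mock (SD, n = 3 each). Gadd45a was thus the most abundant member in FDMn, FDI and Mock, and Gadd45g in FD.

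**Figure D2:**
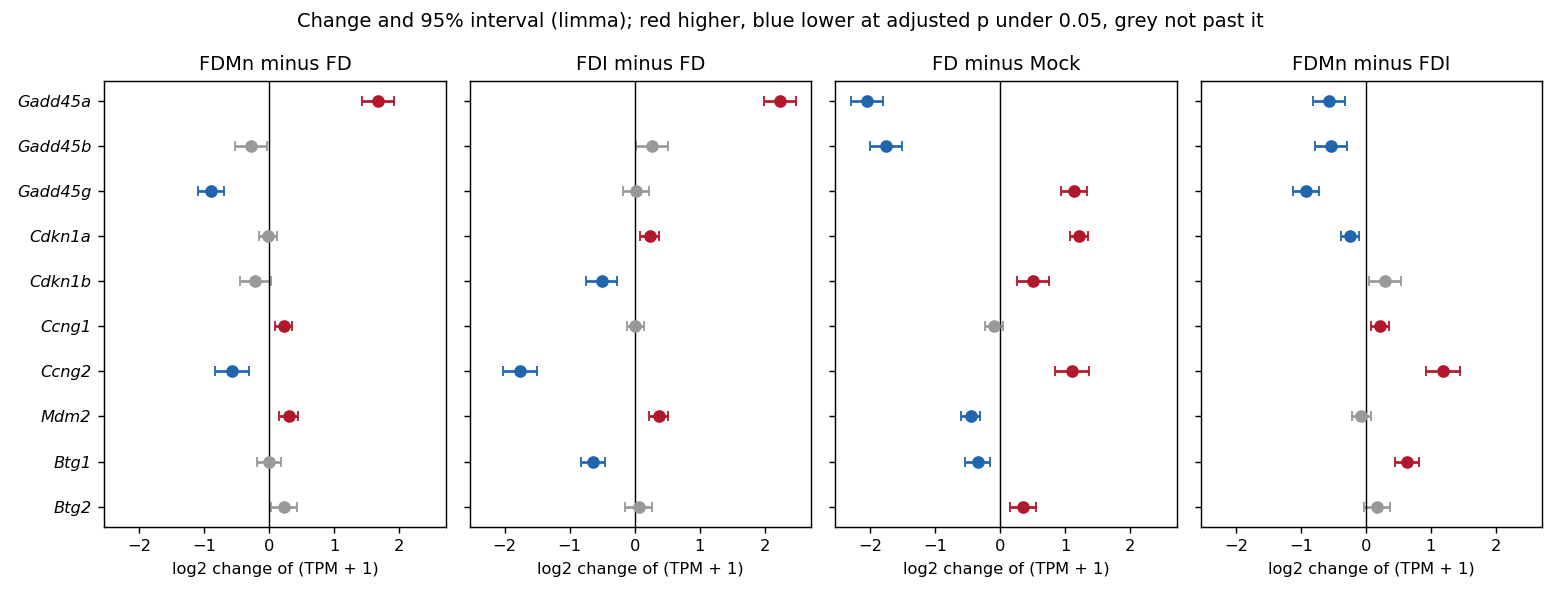
Log2 change of (TPM + 1) on the x axis for the 10 genes (rows) in FDMn minus FD, FDI minus FD, FD minus Mock and FDMn minus FDI (panels). Points are estimates from limma over all 12 libraries, whiskers are 95% intervals, and colour gives the call; Gadd45a, for example, is at 1.67, 2.23, −2.05 and −0.57.

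Of the kinase inhibitor genes, p21 was raised in all groups given forskolin and dexamethasone, while p27 was raised in FD, and in FDI it was not called different from Mock. Cdkn1a (ENSMUSG00000023067.14, chromosome 17, 29090976 to 29100727) was the most abundant of the 10 genes, with 277, 261 and 277 TPM in FDMn, 325, 298 and 343 TPM in FDI, 287, 281 and 256 TPM in FD and 122, 120 and 111 TPM in Mock. All 9 treated libraries were above every Mock library. It rose 2.34-fold in FD relative to Mock (1.22 ± 0.06, adjusted p = 2.7e-08), 2.31-fold in FDMn relative to Mock (1.20 ± 0.06, adjusted p = 3.19e-08) and 2.74-fold in FDI relative to Mock (1.45 ± 0.06, adjusted p = 5.47e-09). FDMn was at 0.990 times the FD level (−0.01, 95% interval −0.15 to 0.13, adjusted p = 0.922). FDI was 1.17-fold above FD (0.23 ± 0.06, adjusted p = 0.0345), a call that ended under both other scalings (adjusted p = 0.0961 and 0.112), with no filter on low values, in a fit of these groups alone, and without FD replicate 2, FD replicate 3, FDI replicate 1 or FDI replicate 3. The call of FDMn below FDI (−0.24 ± 0.06, adjusted p = 0.0233) also ended under both scalings (adjusted p = 0.0663 and 0.23) and without any single FDMn replicate, FDI replicate 1 or FDI replicate 3. A transcript of unknown coding status lies on the opposite strand within Cdkn1a.

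Cdkn1b (ENSMUSG00000003031.14, chromosome 6, 134920401 to 134925513) was much lower, with 20.6 to 21.1 TPM in FDMn, 16.3 to 17.2 in FDI, 20.97 to 26.8 in FD and 14.6 to 19.9 in Mock. FDI and Mock overlapped. It rose 1.44-fold in FD relative to Mock (0.50 ± 0.11, adjusted p = 0.00329) and fell in FDI relative to FD (−0.51 ± 0.11, adjusted p = 0.00959), with FDI and Mock differing by 0.00 (95% interval −0.25 to 0.24, adjusted p = 0.982). FDMn was 0.855 times FD (−0.21, −0.45 to 0.03, adjusted p = 0.233) and missed the threshold against FDI (0.30 ± 0.11, adjusted p = 0.088), passing it in a fit of these groups alone (adjusted p = 0.0188). Against Mock, FDMn missed the threshold (0.29 ± 0.11, adjusted p = 0.0511) and passed it under both other scalings (adjusted p = 0.00841 and 0.00987) and without Mock replicate 3.

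The cyclin G genes went separate ways, with Ccng2 among the members that changed most and Ccng1 among those that changed least. Ccng2 (ENSMUSG00000029385.14, chromosome 5, 93267257 to 93276231), an unconventional cyclin linked to arrest, had 25.1, 16.9 and 19.7 TPM in FDMn, 7.72, 8.59 and 8.81 TPM in FDI, 30.4, 33.1 and 28.8 TPM in FD and 13.5, 14.1 and 13.5 TPM in Mock. The 4 groups did not overlap, in the order FD, FDMn, Mock and FDI. It rose 2.25-fold in FD relative to Mock (1.11 ± 0.12, adjusted p = 1.47e-05). In FDI it was at 0.272 times the FD level (−1.76 ± 0.12, adjusted p = 2.57e-06), which was below Mock as well (−0.65 ± 0.12, adjusted p = 0.0011). In FDMn it was at 0.668 times the FD level (−0.58 ± 0.12, adjusted p = 0.00739), still above Mock (0.54 ± 0.12, adjusted p = 0.00348). FDMn was 2.45-fold above FDI (1.18 ± 0.12, adjusted p = 5.11e-05).

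Ccng1 (ENSMUSG00000020326.7, chromosome 11, 40748552 to 40755311), a p53 target that recruits a phosphatase to MDM2, had 60.8 to 64.1 TPM in FDMn, 50.9 to 57.0 in FDI, 52.6 to 55.0 in FD and 54.5 to 60.1 in Mock. FDI, FD and Mock overlapped, and FD against Mock was not called (−0.09, 95% interval −0.23 to 0.04, adjusted p = 0.241). FDMn was 1.17-fold above FD (0.23 ± 0.06, adjusted p = 0.0273) and 1.17-fold above FDI (0.22 ± 0.06, adjusted p = 0.0286). The call against FD ended with a replicate block (adjusted p = 0.0516), in a fit of these groups alone (adjusted p = 0.0567) and without FD replicate 2, FDMn replicate 1 or FDMn replicate 2. The call against FDI ended with a replicate block (adjusted p = 0.0536) and without FDI replicate 1, FDI replicate 3, FDMn replicate 1 or FDMn replicate 2. Against Mock, FDMn was not called (0.13, adjusted p = 0.105) except under both other scalings (adjusted p = 0.0021 and 0.00384). The ratio of Ccng1 to Ccng2 TPM was 2.54 to 3.80 in FDMn, 6.12 to 6.63 in FDI, 1.59 to 1.85 in FD and 3.86 to 4.46 in Mock.

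Mdm2 (ENSMUSG00000020184.15, chromosome 10, 117688875 to 117710758) was lowest in FD. It had 46.5, 54.1 and 48.9 TPM in FDMn, 50.5, 54.4 and 51.8 TPM in FDI, 41.2, 38.4 and 40.9 TPM in FD and 53.2, 57.0 and 55.6 TPM in Mock. FD lay below all 9 other libraries, which overlapped between groups. Mdm2 fell in FD relative to Mock (−0.45 ± 0.07, adjusted p = 0.000214) and was higher than FD in FDMn (0.30 ± 0.07, adjusted p = 0.0108) and in FDI (0.37 ± 0.07, adjusted p = 0.00326). The call in FDMn ended in a fit of these groups alone (adjusted p = 0.0502). FDMn and FDI were not called different (−0.07, 95% interval −0.22 to 0.08, adjusted p = 0.54), and neither FDMn (−0.15 ± 0.07, adjusted p = 0.0988) nor FDI (−0.08, −0.23 to 0.07, adjusted p = 0.388) was called against Mock, except FDMn without FDMn replicate 2 (adjusted p = 0.0378).

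Btg2 was higher in FD than in Mock, and Btg1 was lower in FD than in Mock on TPM but not called under either other scaling. Btg2 (ENSMUSG00000020423.6, chromosome 1, 134075170 to 134079120), whose promoter holds the full cAMP element, had 51.8 to 58.6 TPM in FDMn, 44.7 to 57.0 in FDI, 44.8 to 49.4 in FD and 34.4 to 39.5 in Mock. Every treated library was above every Mock library. It rose in FD relative to Mock (0.35 ± 0.09, adjusted p = 0.0101) and was above Mock in FDMn (0.58 ± 0.09, adjusted p = 0.000353) and FDI (0.41 ± 0.09, adjusted p = 0.00427). Against FD, FDMn (0.23, 95% interval 0.03 to 0.43, adjusted p = 0.118) and FDI (0.06, −0.14 to 0.27, adjusted p = 0.713) were not called, nor was FDMn against FDI (0.17, −0.03 to 0.37, adjusted p = 0.245).

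Btg1 (ENSMUSG00000036478.8, chromosome 10, 96617006 to 96622809) had 28.1, 29.0 and 26.2 TPM in FDMn, 19.6, 17.1 and 16.0 TPM in FDI, 26.8, 26.6 and 30.4 TPM in FD and 35.6, 34.7 and 37.1 TPM in Mock. FDI was lowest and Mock highest, and FDMn and FD overlapped. In FDI it was at 0.629 times the FD level (−0.64 ± 0.08, adjusted p = 0.000392), and FDMn was 1.58-fold above FDI (0.64 ± 0.08, adjusted p = 0.000344). FDMn was at 0.995 times FD (−0.01, 95% interval −0.19 to 0.18, adjusted p = 0.979). FDI was 0.490 times Mock (−0.99 ± 0.08, adjusted p = 2.22e-06). Btg1 was lower in FD than in Mock (−0.35 ± 0.08, adjusted p = 0.00594) and lower in FDMn than in Mock (−0.35 ± 0.08, adjusted p = 0.00528), but these 2 calls ended under median-of-ratios scaling (adjusted p = 0.106 and 0.0906) and quantile normalization (adjusted p = 0.0726 and 0.0644). The ratio of Btg2 to Btg1 TPM was 1.97 to 2.02 in FDMn, 2.29 to 3.56 in FDI, 1.53 to 1.84 in FD and 0.967 to 1.14 in Mock. The Btg1 pseudogenes Btg1-ps1 and Btg1-ps2 were listed at 0 in all libraries.

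Counted together, 9 of the 10 members were called in FD against Mock, 5 of them higher (11.2% of all genes tested) and 4 lower (29.9%), with 41.1% of all genes called either way. In FDMn against FD 3 were higher (7.22% of all genes) and 2 lower (7.90%), with 15.1% called either way. In FDI against FD 3 were higher (10.2%) and 3 lower (4.35%), with 14.5% either way. In FDMn against FDI 3 were higher (5.68%) and 4 lower (11.9%), with 17.6% either way. In FDMn against Mock 4 were higher (12%) and 3 lower (30.6%), with 42.7% either way. In FDI against Mock 3 were higher (12.9%) and 3 lower (25.4%), with 38.3% either way. Since the set was chosen with these comparisons known, nothing is read from the shares. FDMn and FDI are both compared with the same FD libraries, and FD itself with Mock, so these comparisons are not independent of each other. The median change of all genes was −0.15 in FD against Mock on TPM, −0.01 after median-of-ratios scaling and −0.04 after quantile normalization. Lower genes made up 72.7% of the calls of FD against Mock on TPM, against 49.1% and 55.0% with the 2 other scalings, and 71.8%, 48.7% and 54.0% of FDMn against Mock. They made up 30.0%, 45.1% and 46.5% of the calls of FDI against FD, 67.7%, 55.1% and 51.6% of FDMn against FDI, and 66.3%, 48.0% and 55.2% of FDI against Mock.

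The other genes of the pathway were followed in 10 lists taken from textbook knowledge. Their counts stand beside the shares of all genes tested, 11.2% higher and 29.9% lower in FD against Mock. These shares were 7.22% and 7.90% in FDMn against FD, 10.2% and 4.35% in FDI against FD, and 5.68% and 11.9% in FDMn against FDI. No list was tested as a set. Trp53, the p53 gene itself, was at 44.2 ± 1.81 TPM in FD and 118 ± 4.70 TPM in Mock (SD, n = 3 each; log2 change −1.39 ± 0.08, adjusted p = 3.7e-08). It was at 46.1 ± 2.15 TPM in FDMn (against FD, adjusted p = 0.656) and 50.9 ± 5.35 TPM in FDI (against FD, adjusted p = 0.116). Of 27 p53 targets outside the members, 6 rose and 12 fell in FD relative to Mock (median log2 change −0.27, against −0.15 over all genes tested); under either other scaling 7 rose and 9 fell. Those with the smallest adjusted p were the polo-like kinase gene Plk3, up 7.72-fold, its relative Plk2, at 0.395 times Mock, Trp53inp1, a stress protein gene tied to autophagy, up 2.40-fold, and the sestrin gene Sesn1, which restrains growth signalling, up 4.10-fold.

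Among the same 27 p53 targets, 4 rose and 6 fell in FDMn relative to FD (median 0.05, against 0.00 over all genes). Plk3 was at 89.5 ± 3.86 TPM in FDMn and 47.1 ± 1.55 TPM in FD, while Sesn1 (0.565 times FD), Plk2 (0.772 times) and Perp, a junction protein gene (0.806 times), fell. In FDI 7 rose and 3 fell relative to FD (median 0.08, against 0.04 over all genes). The sestrin gene Sesn2, also a known target of the stress factor ATF4, rose 2.19-fold and Plk3 1.81-fold, and Trp53inp1 (0.560 times) and Sesn1 (0.425 times) fell. Between FDMn and FDI, 4 were higher and 8 lower, among them Pmaip1, a cell death gene, at 0.870 ± 0.0717 TPM in FDMn and 5.04 ± 0.707 TPM in FDI (adjusted p = 6.92e-05).

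**Figure D3:**
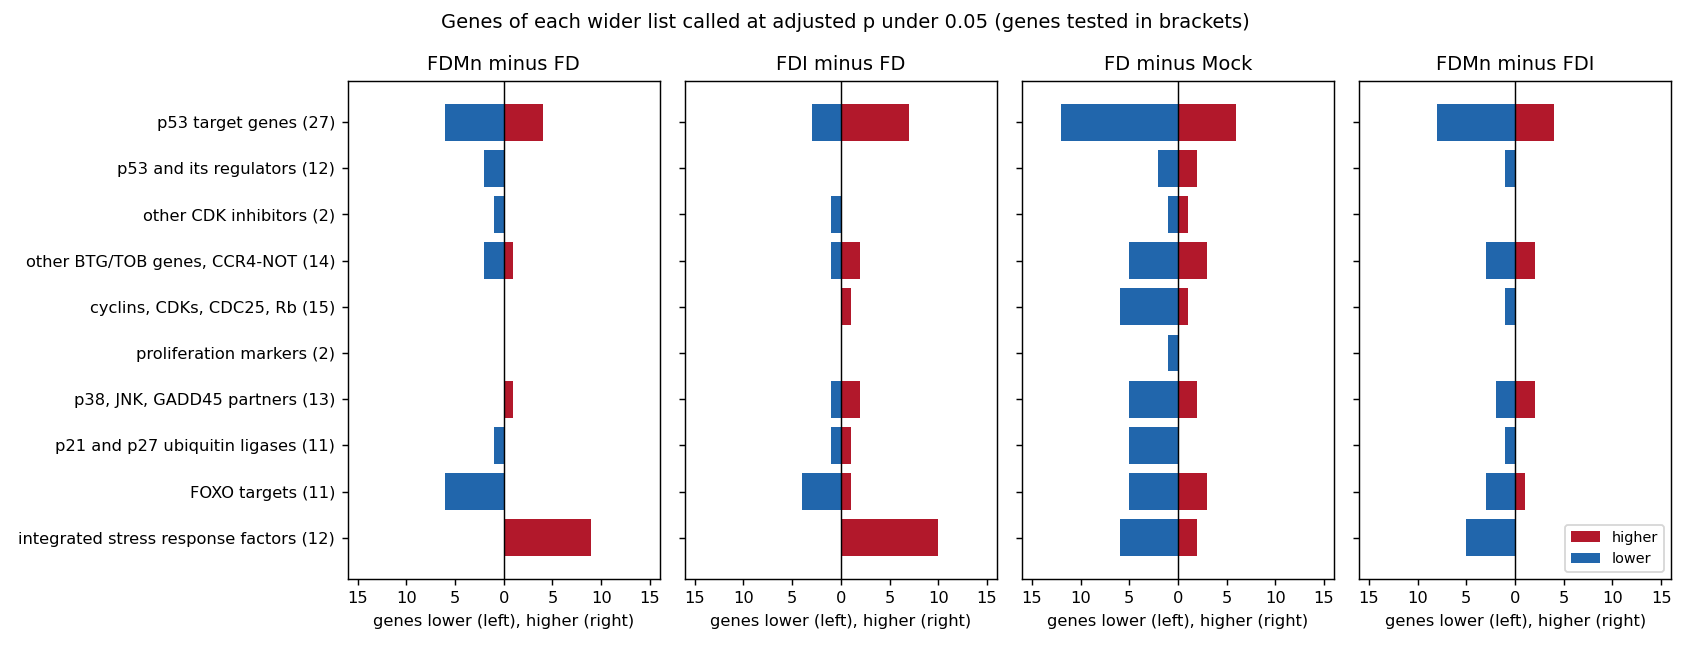
Number of genes of each wider list (rows, genes tested in brackets) called higher (red, to the right) or lower (blue, to the left) in FDMn minus FD, FDI minus FD, FD minus Mock and FDMn minus FDI. The integrated stress response list has 9 and 10 genes higher in the first panels and 6 lower in FD minus Mock, and p53 targets go both ways in every panel.

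The integrated stress response, through which ATF4 and CHOP answer to shortage of amino acids and to unfolded protein, is a known route to Gadd45a. Of 12 genes listed for this response, factors and downstream genes together, 9 were higher and 0 lower in FDMn than in FD (median 0.54). In FDI 10 were higher and 0 lower than in FD (median 0.93). In FD against Mock 2 rose and 6 fell (median −0.38), and under either other scaling 3 rose and 6 fell. The median of all genes was 0.00, 0.04 and −0.15 in these comparisons. Against Mock, 6 factors were higher and 1 lower in FDMn (median 0.29, against −0.15 over all genes). In FDI 7 were higher than Mock and 2 lower (median 0.88, against −0.10). Of all genes tested, 12% were higher and 30.6% lower in FDMn against Mock, and 12.9% and 25.4% in FDI against Mock. Gadd45a was not called higher than Mock in either group. Whether these genes bear on the level of Gadd45a was not tested. Ddit3, which encodes CHOP, was 2.93-fold above FD in FDMn and 6.25-fold in FDI. In FDMn 5 of the 12 were lower than in FDI and 0 higher, among them Atf4 at 231 ± 4.51 TPM in FDMn and 327 ± 13.6 TPM in FDI (adjusted p = 0.000294) and Chac1, a glutathione-degrading enzyme gene, at 0.363 times FDI.

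Of 11 measured FOXO targets of arrest and stress defence, 3 rose and 5 fell in FD relative to Mock. Under median-of-ratios scaling 6 rose and 4 fell, and under quantile normalization 5 rose and 5 fell. Relative to FD, 0 rose and 6 fell in FDMn (median −0.22), and 1 rose and 4 fell in FDI (median −0.28). Bcl2l11, which encodes the cell death protein BIM, was at 3.26 ± 0.348 TPM in FDMn, 3.11 ± 0.397 in FDI and 6.92 ± 0.218 in FD. Rbl2, a pocket protein gene that restrains the cell cycle, was at 0.631 times FD in FDMn and 0.534 times FD in FDI. Between FDMn and FDI 1 target was higher and 3 lower (median 0.06, against −0.04 over all genes).

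Of the BTG and TOB relatives and the CCR4-NOT subunits, 3 of 14 rose and 5 fell in FD relative to Mock (median log2 change −0.14, against −0.15 over all genes, of which 11.2% rose and 29.9% fell). Under either other scaling 3 rose and 4 fell. The 3 that rose were the growth-restraining relatives Btg3 (2.77-fold), Tob2 (1.80-fold) and Tob1 (1.28-fold), while Prmt1, a methyltransferase that binds BTG proteins, was at 0.629 times Mock. In FDMn 1 rose and 2 fell and in FDI 2 rose and 1 fell relative to FD. Of the 13 measured p38 and JNK kinases and GADD45 partners, 2 rose and 5 fell in FD relative to Mock (median −0.25, against −0.15 over all genes). Under median-of-ratios scaling 3 rose and 4 fell, and under quantile normalization 2 rose and 4 fell. The shares over all genes were 11.2% and 29.9%, so nothing is read from these counts. Map2k3, which encodes a kinase upstream of p38 and not p38 itself, was at 0.529 times Mock. Map3k4, which GADD45 proteins bind, was at 10.2 ± 1.10 TPM in FD and 17.7 ± 3.16 TPM in Mock. Other kinase genes of the list went the other way. Map2k4 was at 63.5 to 67.7 TPM in FD and 42.0 to 47.7 in Mock, and Map2k6 at 3.57 to 4.85 and 1.38 to 1.80. Map2k3 rose 1.34-fold in FDMn and 1.70-fold in FDI relative to FD.

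Of 8 proliferation markers 2 passed the filter, and Mki67 was at most 0.142 TPM in any library. Of 15 measured cyclins, CDKs, CDC25 phosphatases and pocket proteins, 1 rose and 6 fell in FD relative to Mock (median −0.30, against −0.15 over all genes), among them Cdk4 at 0.645 times and Cdk6 at 0.426 times Mock. Under either other scaling 1 rose and 5 fell. In FDMn 0 were called against FD by limma (1, Cdk4, at an unadjusted p of 0.0179), and 1, Cdk4, rose in FDI relative to FD (1.33-fold, adjusted p = 0.00402). Of the other CDK inhibitors, Cdkn2b was at 1.71 ± 0.776 TPM in FD and 7.39 ± 1.26 TPM in Mock (adjusted p = 4.22e-05). Cdkn1c, Cdkn2a and Cdkn2c did not pass the filter. Cdkn2d was at 2.33 ± 1.14 TPM in FD and 0.509 ± 0.270 TPM in Mock. This low gene passed the filter only because of its FD libraries, so the difference is given as a description without a test. Of 11 ubiquitin ligase genes listed for p21 and p27, 0 rose and 5 fell in FD relative to Mock (median −0.21, against −0.15 over all genes). Under either other scaling 2 fell. The list includes Fbxw7, at 0.569 times Mock, which is not an established ligase of p21 or p27.

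The genes whose profile over the 12 libraries lay closest to each member were found by the root mean square difference of log2(TPM + 1), each gene centred and divided by its SD over the libraries, among 8816 genes. Those closest to Gadd45a were the tRNA synthetase genes Aars (0.223 SD units) and Rars (0.250) and the ribosome assembly gene Nop14 (0.250). Gadd45b lay closest to Ubtf (0.141), which encodes a factor for rRNA transcription, the taurine transporter gene Slc6a6 (0.169) and Lrrfip1 (0.182). Gadd45g lay closest to Pla2g12a (0.212), the heme-degrading enzyme gene Hmox1 (0.222) and Arhgap29 (0.231). Cdkn1a lay closest to the pyruvate kinase gene Pkm (0.126), the heme synthesis gene Alas1 (0.146) and the nuclear receptor gene Nr4a3 (0.149).

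Ccng2 lay closest to Sorbs3 (0.271), the chaperone gene Hspa8 (0.324) and the phosphatidate phosphatase gene Lpin2 (0.324). All of these had the same order of groups as Ccng2, which such a search favours. Lpin2, for example, averaged 72.6 TPM in FDMn, 38.5 in FDI, 90.5 in FD and 50.3 in Mock. Btg1 lay closest to Mat2b (0.262), Atg2a (0.263) and Prr13 (0.265), and Btg2 to Gml (0.286), Lrrc57 (0.299) and the ribonucleotide reductase gene Rrm2 (0.337). The closest genes of Cdkn1b (N4bp2l1, Sec16a and Oma1), Ccng1 (Cp, Zfp874a and Tspan7) and Mdm2 (Pwwp2b, Qtrt2 and Arid3a) lay at 0.331 to 0.416 SD units. Libraries of 1 group share their treatment, so such likeness is a description of 4 groups and not of 12 independent points.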

How the data were processed

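The authors deposited a table of gene-level TPM for 12 libraries, each column summing to the same total. The submitters' processing notes list kallisto 0.44.0, DESeq2 (for what step is not said) and the build GRCm38.p6; the sources used here give neither the annotation release nor the strand setting. TPM keeps no read counts, so depth is unknown and no counting interval is given. Columns were matched to samples by library name in the descriptions, and groups and replicate numbers come from the titles. Genes with at least 1 TPM in at least 3 libraries (11544) were fitted as log2(TPM + 1) in limma 3.58.1 (R 4.3.3) with the trend option and 1 term per group, two-sided, with Benjamini-Hochberg adjustment over all genes tested. The fit was checked on simulated data.

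Coordinates come from GENCODE M21, an annotation of GRCm38, and promoters from RefSeq. The members and lists were chosen with earlier results of these data known. All members are named. From a wider list at most 4 genes with the smallest adjusted p are named, plus Trp53. Mki67, Map2k4, Map2k6 and the CDK inhibitors under the filter were named outside this rule after their values were seen. Alternatives were another pseudocount (0.1), no filter, median-of-ratios scaling, quantile normalization, a replicate block, a fit of only the groups compared, and leaving out each library.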

Additional observations from a re-analysis of the deposited data

How the results depend on the processing

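Of the 720 values of the 10 members over 6 comparisons and 12 alternatives each, 672 kept their direction and their side of the threshold, 41 lost a call, 7 gained a call and 0 reversed. In a fit of only the groups compared, 3 members and 1184 genes were called in FDMn against FD (5 and 1746 in the fit of all groups), and 5 members and 985 genes in FDI against FD (6 and 1674). Leaving out 1 library at a time gave 9 to 9 members called and 4064 to 4474 genes for FD against Mock, 4 to 5 and 1015 to 2028 for FDMn against FD, 5 to 6 and 1098 to 2120 for FDI against FD, and 5 to 7 and 1346 to 1457 for FDMn against FDI. It gave 5 to 7 and 4153 to 4393 for FDMn against Mock, and 6 to 6 and 3652 to 3837 for FDI against Mock. The lowest counts came without FDMn replicate 1 (1015 for FDMn against FD and 1346 for FDMn against FDI) and without FDI replicate 3 (1098 for FDI against FD), and 1160 were called for FDMn against FD without FDMn replicate 2; the cause was not tested. Same-numbered libraries did not visibly deviate together (correlations of −0.098 to 0.068, and 5 of 12 libraries correlated best with their own number). The labels do not say whether the numbers pair the samples, and with 3 libraries a group these values cannot exclude it. With a replicate block 9, 4, 6, 6, 7 and 6 members were called in FD against Mock, FDMn against FD, FDI against FD, FDMn against FDI, FDMn against Mock and FDI against Mock, and 4660, 1583, 1491, 1829, 4819 and 4259 genes. Depth is unknown in TPM, so no limit on low genes is given.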
